A study of Homo sapiens with 12 samples.

Results

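The genes described here are 10 human genes of glycolysis and of the cell's response to low oxygen: SLC2A1, HK2, PFKFB3, ALDOA, PGK1, ENO1, LDHA, PDK1, CA9 and VEGFA. They were chosen by name, were found under those symbols among 26415 gene symbols used, and all 10 were among the 15668 genes tested. RNA was measured in 12 poly(A)-selected libraries, 2 in each of 6 groups. PC3, a prostate adenocarcinoma line, and MG63, an osteosarcoma line, both labelled wild type, were each transfected for 72 h with 10 nM of a non-targeting siRNA (siControl), an siRNA against LARP4 (siLARP4A) or an siRNA against LARP4B (siLARP4B). PC3 grew in RPMI 1640 and MG63 in Alpha-MEM, both with fetal bovine serum in an ordinary humidified incubator, and the protocol names no low-oxygen step. Both replicates of a group came from 1 cell line, and the siRNA sequences were not used here. Levels are fragments per kilobase of transcript on the authors' FPKM scale, given as replicate 1 and then replicate 2. Ratios, percentages of the control and log2 changes are from the edgeR fit, whose TMM scaling differs from that of FPKM, so they are not the exact ratios of the FPKM values beside them.

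Glycolysis splits glucose into pyruvate in the cytoplasm. When oxygen is short, the subunit HIF-1 alpha (HIF1A) escapes hydroxylation by the EGLN enzymes and destruction through VHL, pairs with ARNT, and binds a short DNA core in the hypoxia response elements of its target genes. Many of those targets carry glucose into the cell, run the glycolytic steps, turn pyruvate into lactate, keep pyruvate out of mitochondria, export acid or call in blood vessels, and tumour cells often express them in normal oxygen as well. LARP4 and LARP4B are related RNA-binding proteins that associate with poly(A)-binding protein and with messenger RNA.

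The HIF core was searched for in the 250 bases before the start site of each gene, because the factor's best known sites in several of these genes lie there. The sequences are from RefSeq (GRCh38.p14), which held a start site matching the gene model used here for 9 of the 10 genes. VEGFA was not matched. The core was taken as ACGTG or GCGTG on either strand, with overlapping matches merged into 1. HK2, PGK1 and LDHA held 3 cores each, ENO1 and PDK1 held 2, PFKFB3, ALDOA and CA9 held 1, and SLC2A1 held 0. At least 1 core was present in 8 of 9 (88.9%), against 43.2% of all 35116 promoters in the table and 53.4% of 17101 promoters of tested genes. At least 2 were present in 55.6%, against 22.1% of the promoters of tested genes. The promoters of 4 genes are shown, PGK1 and LDHA for their 3 cores and as the genes with the lowest share of the control left in PC3 with siLARP4B among those that passed, PDK1 for a pair of cores within 20 bases of the start, and CA9 for its single core just before the start. Each reads 5′ to 3′ toward the gene and ends at the base before the start site, and capitals mark the HIF core.
PGK1, chrX:78103998-78104247, plus strand: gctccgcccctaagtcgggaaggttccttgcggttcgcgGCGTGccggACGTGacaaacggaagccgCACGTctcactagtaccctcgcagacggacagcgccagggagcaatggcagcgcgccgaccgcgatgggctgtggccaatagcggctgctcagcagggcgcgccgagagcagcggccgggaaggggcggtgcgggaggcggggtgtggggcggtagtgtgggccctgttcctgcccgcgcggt
LDHA, chr11:18394313-18394562, plus strand: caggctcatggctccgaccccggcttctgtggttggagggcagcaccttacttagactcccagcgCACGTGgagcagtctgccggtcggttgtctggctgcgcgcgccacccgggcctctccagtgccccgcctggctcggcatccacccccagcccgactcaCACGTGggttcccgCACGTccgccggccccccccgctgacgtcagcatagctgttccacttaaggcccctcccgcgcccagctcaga
PDK1, chr2:172555840-172556089, plus strand: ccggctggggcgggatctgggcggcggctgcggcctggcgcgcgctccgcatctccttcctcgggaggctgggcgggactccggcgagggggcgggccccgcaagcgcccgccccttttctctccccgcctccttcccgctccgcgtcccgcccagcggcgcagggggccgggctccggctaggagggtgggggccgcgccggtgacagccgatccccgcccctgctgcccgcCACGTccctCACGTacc
CA9, chr9:35673678-35673927, plus strand: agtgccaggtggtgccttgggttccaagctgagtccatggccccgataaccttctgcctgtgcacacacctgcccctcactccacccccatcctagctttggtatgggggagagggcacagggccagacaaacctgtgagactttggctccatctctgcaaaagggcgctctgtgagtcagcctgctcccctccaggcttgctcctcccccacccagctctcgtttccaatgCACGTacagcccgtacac
In PGK1 the cores begin 211, 202 and 183 bases before the start, in LDHA 185, 87 and 73, in PDK1 17 and 8, and in CA9 18. Of the genes with 3 cores, PGK1 changed by -1.12, LDHA by -0.81 and HK2 by -0.38 (log2, PC3 with siLARP4B against siControl). SLC2A1, with 0 cores, changed by -0.74. A relation between the number of cores and the changes was not tested. A match of these letters is a description of the sequence and not evidence that a factor was bound in these cells.

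Library totals ran from 16950119 to 24864977 fragments. In PC3, LARP4 was 19.2 ± 0.344 FPKM (SD, n = 2) with siControl and 2.41 ± 0.0823 with siLARP4A, and LARP4B was 7.10 ± 0.112 with siControl and 1.31 ± 0.0633 with siLARP4B. In MG63, LARP4 was 8.34 ± 0.227 and 2.15 ± 0.0527, and LARP4B was 6.71 ± 0.0925 and 2.05 ± 0.217, in the same order. Summed epithelial markers (EPCAM, KRT8, KRT18, KRT19, CDH1) were 796 to 1042 FPKM in PC3 libraries and 54.6 to 72.2 in MG63 libraries, and summed osteoblast and mesenchymal markers were 4553 to 5186 in MG63 and 406 to 517 in PC3. RUNX2, a defining osteoblast factor, was near 0 in MG63, at 0.159 FPKM with siControl. Blood and endothelial markers summed to at most 0.577 FPKM in every library. The replicates of PC3 siLARP4A and MG63 siLARP4B were the least alike, with a chi-square per degree of freedom over genes of 6.47 and 5.21, against 1.65 to 2.63 in the other 4 groups.

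Before any knockdown the lines differed most in PGK1, which makes ATP from 1,3-bisphosphoglycerate. PGK1 was 415 and 394 FPKM in PC3 and 49.4 and 49.2 in MG63, and the fitted ratio was 7.35 (log2 difference 2.88 ± 0.062 SE, edgeR adjusted p = 2.27e-21). LDHA, the subunit of lactate dehydrogenase that favours lactate production, was 1095 and 1062 FPKM in PC3 and 427 and 435 in MG63, with a fitted ratio of 2.24. HK2 (fitted ratio 1.75), PFKFB3 (1.55), SLC2A1 (1.23) and ENO1 (1.15) were also higher in PC3. The secreted angiogenic factor VEGFA went the other way, at 24.7 and 24.1 FPKM in PC3 and 48.9 and 41.8 in MG63, and its fitted level was 48.2% of that in MG63 (adjusted p = 1.55e-08). CA9, a membrane carbonic anhydrase that acidifies the space outside the cell, was 4.00 and 3.33 FPKM in PC3 and 7.66 and 4.78 in MG63 (log2 difference -0.92 ± 0.4 SE, adjusted p = 0.0386). ALDOA and PDK1 did not pass the test. Thus 6 genes were higher in PC3 and 2 lower, where 81.8% of all tested genes passed, 42.1% higher and 39.7% lower in PC3. The CA9 call was kept in 15 of 22 alternatives. It was lost, among others, with DESeq2 (adjusted p = 0.233) and without either PC3 siControl library or MG63 siControl replicate 1. The culture medium differed with the line, and the 2 cannot be told apart.

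The top and the bottom of the order of levels per length were alike in both lines. With siControl, ENO1 (1593 and 1514 FPKM in PC3, 1210 and 1199 in MG63) stood at the top, with ALDOA next (1119 and 1066, 1023 and 1002). LDHA was level with ALDOA in PC3, where the library values interleaved, and below it in MG63 with no overlap. PDK1 and CA9 were the lowest, under 8 FPKM in every siControl library, and in PC3 their libraries overlapped. The PDK1 level depends on the gene model: the model with the most fragments is 14132 bases long and gave a mean of 3.41 FPKM in PC3 siControl, while a 2952-base model gave 11.1.

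**Figure D1:**
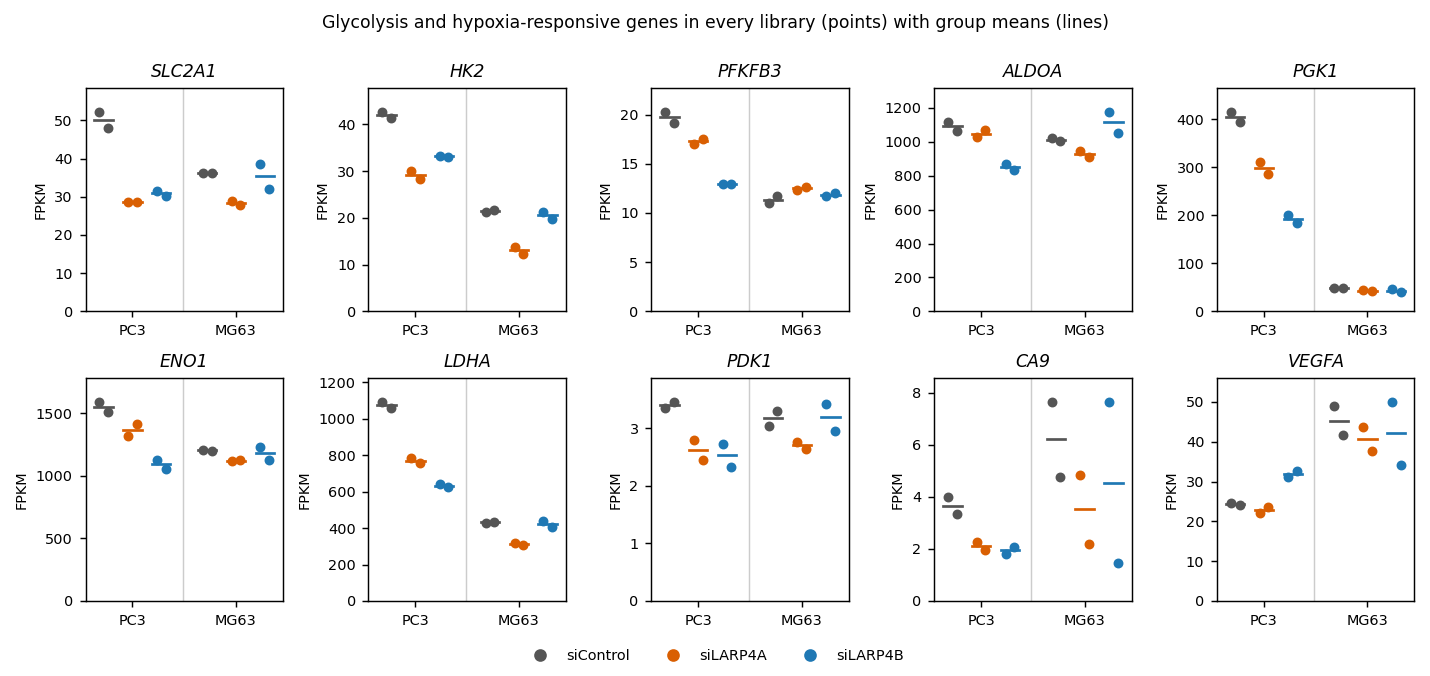
Level of each of the 10 genes in the 12 libraries, 1 panel per gene with FPKM from 0 on the vertical axis, 1 point per library coloured by siRNA (2 per group), and a line at each group mean. PGK1 in PC3 steps down from 415 and 394 with siControl to 200 and 183 with siLARP4B, while its MG63 points stay between 40.1 and 49.4.

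Knockdown of LARP4 in PC3 lowered most of the set. With siLARP4A, 7 of the 10 genes were lower than siControl, 0 were higher and 3 did not pass the test (edgeR quasi-likelihood test, Benjamini-Hochberg adjusted p under 0.05 over all tested genes). Over all genes, 36.0% passed in either direction and 19.0% were lower. The median log2 change was -0.42 in the set and 0.00 over all tested genes. Both siLARP4A libraries lay below both controls in 9 of the 10 genes and above them in 0. Over all tested genes 30.8% lay below and 32.8% above, so such a separation is common. In these bulk RNA data, fewer cells that express a gene and less of its RNA per cell cannot be told apart.

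The first steps of the pathway fell with siLARP4A in PC3. SLC2A1, the glucose transporter GLUT1, was 52.2 and 47.9 FPKM with siControl and 28.5 and 28.7 with siLARP4A. Both knockdown libraries lay well below both controls, at 56.7% of the control level (log2 change -0.82 ± 0.068 SE, edgeR adjusted p = 3.85e-09). HK2, the hexokinase that traps glucose as its phosphate, was 42.7 and 41.3 with siControl and 30.1 and 28.4 with siLARP4A. It fell to 69.1% of the control, again with no overlap (-0.53 ± 0.056, adjusted p = 1.55e-07). PFKFB3 makes a regulatory fructose bisphosphate that activates phosphofructokinase, a different molecule from the one that ALDOA splits. PFKFB3 was 20.3 and 19.2 and then 17.0 and 17.6. That change was small (-0.20 ± 0.056, adjusted p = 0.0067), and the call was lost when siControl replicate 1 or siLARP4A replicate 1 was left out.

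Of the payoff enzymes in PC3, PGK1 fell most with siLARP4A. PGK1 was 415 and 394 FPKM with siControl and 311 and 286 with siLARP4A, 73.2% of the control (-0.45 ± 0.057, edgeR adjusted p = 1.75e-06). ENO1, the enolase of most tissues, was 1593 and 1514 and then 1320 and 1415. Its libraries did not overlap, and it changed by -0.20 ± 0.047 (adjusted p = 0.00209), a call also lost without siControl replicate 1 or without siLARP4A replicate 1. ALDOA, the aldolase that splits fructose bisphosphate, acts before the payoff steps. It was 1119 and 1066 with siControl and 1030 and 1068 with siLARP4A, which overlap, and it did not pass the test (-0.07 ± 0.048, adjusted p = 0.281).

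The genes that set the fate of pyruvate fell too. LDHA was 1095 and 1062 FPKM with siControl and 784 and 756 with siLARP4A, 70.8% of the control (-0.50 ± 0.043, edgeR adjusted p = 7.41e-09). PDK1, a kinase that switches off pyruvate dehydrogenase, was 3.35 and 3.46 and then 2.80 and 2.44 (-0.39 ± 0.084, adjusted p = 0.000953). In both genes the knockdown libraries lay below both controls.

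CA9 was 4.00 and 3.33 FPKM with siControl and 2.27 and 1.95 with siLARP4A in PC3, a log2 change of -0.80 ± 0.46 that did not pass (edgeR adjusted p = 0.198). The libraries do not overlap, but CA9 had only 42 to 232 fragments per library, and its fitted spread includes a wide gap between the replicates of MG63 siLARP4B described later. The change of CA9 passed the test when either MG63 siLARP4B library was left out and when only the 4 libraries compared were fitted. VEGFA was 24.7 and 24.1 with siControl and 22.2 and 23.6 with siLARP4A (-0.10 ± 0.12, adjusted p = 0.541). Its knockdown libraries lay just below the controls.

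Knockdown of LARP4B in PC3 lowered 8 of the 10 genes and raised 1, VEGFA. CA9 alone did not pass. Over all genes 44.7% passed in either direction, with 23.4% lower and 21.3% higher. The median log2 change of the set was -0.60, against 0.00 over all tested genes. Both siLARP4B libraries lay below both controls in 9 genes and above them in 1. Over all tested genes these shares were 31.4% below and 40.7% above. The comparisons of siLARP4A and siLARP4B with siControl share the same control libraries.

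PGK1 changed most among the genes that passed. It was 415 and 394 FPKM with siControl and 200 and 183 with siLARP4B, so that 45.9% of the control level remained (-1.12 ± 0.057, edgeR adjusted p = 5.88e-13). LDHA was 642 and 625 with siLARP4B, against 1095 and 1062, or 57.0% of the control (-0.81 ± 0.043, adjusted p = 1.2e-12). For both genes the siLARP4B libraries lay below the siLARP4A libraries as well as below the controls. ENO1 was 1126 and 1056 with siLARP4B, 68.2% of the control (-0.55 ± 0.047), and ALDOA was 868 and 833, 75.6% of the control (-0.40 ± 0.048). No library of either gene overlapped the controls.

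SLC2A1 was 31.4 and 30.3 FPKM with siLARP4B, 59.9% of the control (-0.74 ± 0.068, edgeR adjusted p = 8.88e-09). PFKFB3 was 13.0 and 12.9, 63.8% of the control (-0.65 ± 0.059, adjusted p = 6.71e-09). HK2 was 33.2 and 33.1, a smaller change (-0.38 ± 0.056, adjusted p = 8.34e-06). In each of these genes of glucose entry and early glycolysis, both siLARP4B libraries lay below both controls. PDK1 was 2.73 and 2.32, against 3.35 and 3.46 (-0.47 ± 0.086, adjusted p = 0.000111).

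VEGFA rose while the glycolytic genes fell. It was 24.7 and 24.1 FPKM with siControl and 31.0 and 32.7 with siLARP4B, 127% of the control (0.34 ± 0.12, edgeR adjusted p = 0.0188). Both knockdown libraries were above both controls, but the call was kept in only 17 of 22 alternatives. It was lost, among others, with DESeq2 (adjusted p = 0.105) and without siControl replicate 2 or siLARP4B replicate 2. CA9 was 1.83 and 2.06 FPKM, against 4.00 and 3.33 in the controls (-0.96 ± 0.49, adjusted p = 0.121). As with siLARP4A, its libraries did not overlap the controls, and it passed when either MG63 siLARP4B library was left out.

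**Figure D2:**
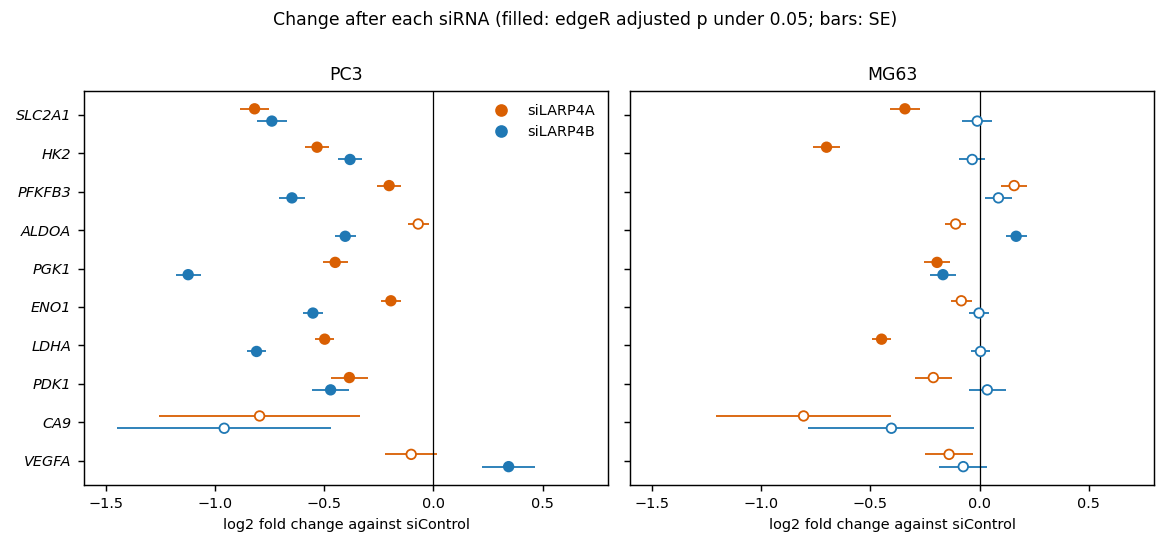
Log2 change of each gene with siLARP4A and with siLARP4B against siControl, for PC3 (left) and MG63 (right), with bars of 1 SE from the edgeR fit of all 12 libraries and filled points where the adjusted p was under 0.05. In PC3 with siLARP4B the points run from -1.12 for PGK1 to 0.34 for VEGFA, and in MG63 with siLARP4B most lie near 0.

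Set directly against each other in PC3, the knockdowns differed in 7 of the 10 genes, with 5 higher and 2 lower with siLARP4A, where 54.2% of all tested genes passed, 27.0% higher and 27.2% lower. PGK1 was 1.60 times as high with siLARP4A as with siLARP4B (log2 difference 0.67 ± 0.057, edgeR adjusted p = 1.42e-09). PFKFB3 (0.45), ENO1 (0.36), ALDOA (0.33) and LDHA (0.31) were also higher with siLARP4A. VEGFA (-0.45) and HK2 (-0.15) were lower with siLARP4A. SLC2A1 had a log2 difference of -0.08 ± 0.069 (adjusted p = 0.357), and PDK1 (0.09 ± 0.087) and CA9 (0.16 ± 0.53) also did not pass. The HK2 call was lost without siLARP4A replicate 2 or either siLARP4B library.

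In MG63, knockdown of LARP4 lowered 4 of the 10 genes: HK2, LDHA, SLC2A1 and PGK1. None of the 10 rose and 6 did not pass, while 26.4% of all tested genes passed, 14.5% higher and 11.9% lower. The median log2 change of the set was -0.20, against 0.01 over all tested genes. Both siLARP4A libraries lay below both controls in 7 genes and above them in 1. Over all tested genes 32.5% lay below and 31.7% above.

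HK2 was 21.3 and 21.6 FPKM with siControl and 13.9 and 12.2 with siLARP4A, 61.5% of the control (-0.70 ± 0.062, edgeR adjusted p = 1.68e-08). LDHA was 427 and 435 and then 317 and 307, 73.3% of the control (-0.45 ± 0.043, adjusted p = 7.36e-08). SLC2A1 was 36.3 in both control libraries and 28.9 and 27.7 with siLARP4A (-0.34 ± 0.069, adjusted p = 0.000722). In these 3 genes of glucose entry and lactate production the groups were well apart. PGK1 was 49.4 and 49.2 and then 43.7 and 41.4, a small change (-0.20 ± 0.06, adjusted p = 0.019) whose call was lost without either siControl library or without siLARP4A replicate 2.

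The other 6 genes in MG63 with siLARP4A had changes from -0.81 ± 0.4 (CA9) to 0.16 ± 0.061 (PFKFB3). PFKFB3 was 11.1 and 11.7 FPKM with siControl and 12.4 and 12.7 with siLARP4A, so its knockdown libraries lay above the controls, with an edgeR adjusted p of 0.0615. ALDOA (943 and 909 against 1023 and 1002), ENO1 (1116 and 1128 against 1210 and 1199) and PDK1 (2.76 and 2.65 against 3.04 and 3.30) had both knockdown libraries below both controls without passing. These small differences lay near the limit of the test: the count that passed was 4 in the fit of all libraries, 7 when either PC3 siLARP4A library or either MG63 siLARP4B library was left out, 7 with no filter on low counts, and 10 when only the 4 libraries compared were fitted. VEGFA (43.7 and 37.6 against 48.9 and 41.8) and CA9 (4.86 and 2.20 against 7.66 and 4.78) overlapped the controls.

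In MG63, knockdown of LARP4B left most of these genes near the control. ALDOA was higher and PGK1 lower, and 8 of the 10 did not pass, against 35.1% of all tested genes that passed, 18.8% higher and 16.3% lower. The median log2 change of the set was -0.01. ALDOA was 1023 and 1002 FPKM with siControl and 1176 and 1053 with siLARP4B (0.17 ± 0.048, edgeR adjusted p = 0.00958). PGK1 was 49.4 and 49.2 and then 46.0 and 40.1 (-0.17 ± 0.06, adjusted p = 0.0333). Both calls were weak: limma on log2 FPKM called 0 of the 10, 0 passed without siControl replicate 2, and only ALDOA passed without siControl replicate 1 or without siLARP4B replicate 2. Without siLARP4B replicate 1, 3 passed, all lower: PGK1, CA9 and VEGFA.

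Of the 8 genes that fell in PC3 with siLARP4B, those other than ALDOA and PGK1 did not pass in MG63. LDHA was 427 and 435 FPKM with siControl and 440 and 408 with siLARP4B (0.00 ± 0.043), and SLC2A1 was 36.3 in both controls and 38.6 and 32.1 (-0.01 ± 0.068). ENO1 (-0.00 ± 0.047), HK2 (-0.03 ± 0.059), PDK1 (0.04 ± 0.084) and PFKFB3 (0.09 ± 0.061) were as near. The siLARP4B and control libraries overlapped in 7 of the 10 genes, and both siLARP4B libraries lay below both controls in 1 and above them in 2. Over all tested genes these shares were 35% below and 30.3% above.

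The replicates of MG63 siLARP4B stood apart from each other in the genes most often called hypoxia-responsive. CA9 was 7.67 FPKM in replicate 1 and 1.44 in replicate 2, a log2 gap of 2.40, and VEGFA was 50.1 and 34.2, a gap of 0.55. Other hypoxia-responsive genes had gaps in the same direction, 1.46 in ANGPTL4, 1.35 in EGLN3 and 1.33 in NDRG1, and the aldolase ALDOC had a gap of 1.04. EGLN3 and ALDOC were low in this group, at no more than 1.11 and 0.825 FPKM. Replicate 1 was the higher in 9 of the 10 genes, PFKFB3 being the exception. For CA9, ANGPTL4, NDRG1, EGLN3 and VEGFA replicate 1 was also the higher in the other MG63 groups. The same held for further genes, among them PGK1, ALDOA, P4HA1, BNIP3L and MXI1. For PGK1 and ALDOA the log2 gap in siControl was only 0.01 and 0.03. The pattern did not hold for many others, among them HK2, PFKFB3, ENO1, LDHA, PDK1, BNIP3, ANKRD37, P4HA2, BHLHE40, DDIT4 and STC2. The log2 gap in siControl and in siLARP4A was 0.68 and 1.14 for CA9, 0.45 and 0.82 for ANGPTL4, 0.37 and 0.63 for NDRG1, 0.27 and 0.35 for EGLN3, and 0.23 and 0.22 for VEGFA. Without replicate 1 of MG63 siLARP4B, the change of CA9 in MG63 with siLARP4B was -2.08 in place of -0.40 and that of VEGFA was -0.39 in place of -0.08. No label gives a reason for the gap, and its part in the MG63 results was not tested beyond leaving out each library.

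Between the knockdowns in MG63, 5 of the 10 genes were lower with siLARP4A than with siLARP4B and 0 were higher, where 43.6% of all tested genes passed, 22.1% higher and 21.5% lower. These were HK2 (log2 difference -0.67 ± 0.062, edgeR adjusted p = 1.17e-08), LDHA (-0.45), SLC2A1 (-0.33), ALDOA (-0.28) and PDK1 (-0.25). PGK1 did not pass (-0.03 ± 0.061, adjusted p = 0.757). The PDK1 call was kept in 15 of 20 alternatives and was lost, among others, without siLARP4B replicate 1 or either siLARP4A library.

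The difference between the lines was tested directly, as the change in PC3 minus the change in MG63. The knockdown itself was not equal. Mean LARP4B went from 7.10 to 1.31 FPKM with siLARP4B in PC3 and from 6.71 to 2.05 in MG63. Mean LARP4 went from 19.2 to 2.41 FPKM with siLARP4A in PC3 and from 8.34 to 2.15 in MG63. The part of this unequal knockdown in the differences between the lines was not tested. For siLARP4B, 8 of the 10 genes had a more negative change in PC3 and 0 a more positive one, while 27.9% of all tested genes differed, 10.3% more positive and 17.6% more negative in PC3. The largest differences were in PGK1 (-0.95 ± 0.083, edgeR adjusted p = 2.03e-08) and LDHA (-0.81 ± 0.061, adjusted p = 3e-09). PFKFB3 (-0.73), SLC2A1 (-0.73), ALDOA (-0.57), ENO1 (-0.55), PDK1 (-0.51) and HK2 (-0.35) followed. The PDK1 difference no longer passed without PC3 siLARP4B replicate 2 or with limma, and the ENO1 difference no longer passed with the deduplicated PC3 control table described later (-0.28, adjusted p = 0.346). The change of VEGFA was more positive in PC3 by 0.42 ± 0.16 (adjusted p = 0.0541), and CA9 had a difference of -0.55 ± 0.63.

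For siLARP4A, 3 of the 10 genes differed between the lines, all more negative in PC3, where 11.4% of all tested genes differed, 4.10% more positive and 7.29% more negative in PC3. SLC2A1 differed by -0.48 ± 0.097 (edgeR adjusted p = 0.00214), PFKFB3 by -0.36 ± 0.083 (adjusted p = 0.00589) and PGK1 by -0.25 ± 0.083 (adjusted p = 0.0496). The PGK1 difference passed in only 5 of the 22 alternatives. LDHA, which fell in both lines with siLARP4A, had a difference of -0.05 ± 0.061 (adjusted p = 0.694), and HK2, which also fell in both, had one of 0.17 ± 0.083 (adjusted p = 0.228). Without PC3 siControl replicate 1 only SLC2A1 differed.

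**Figure D3:**
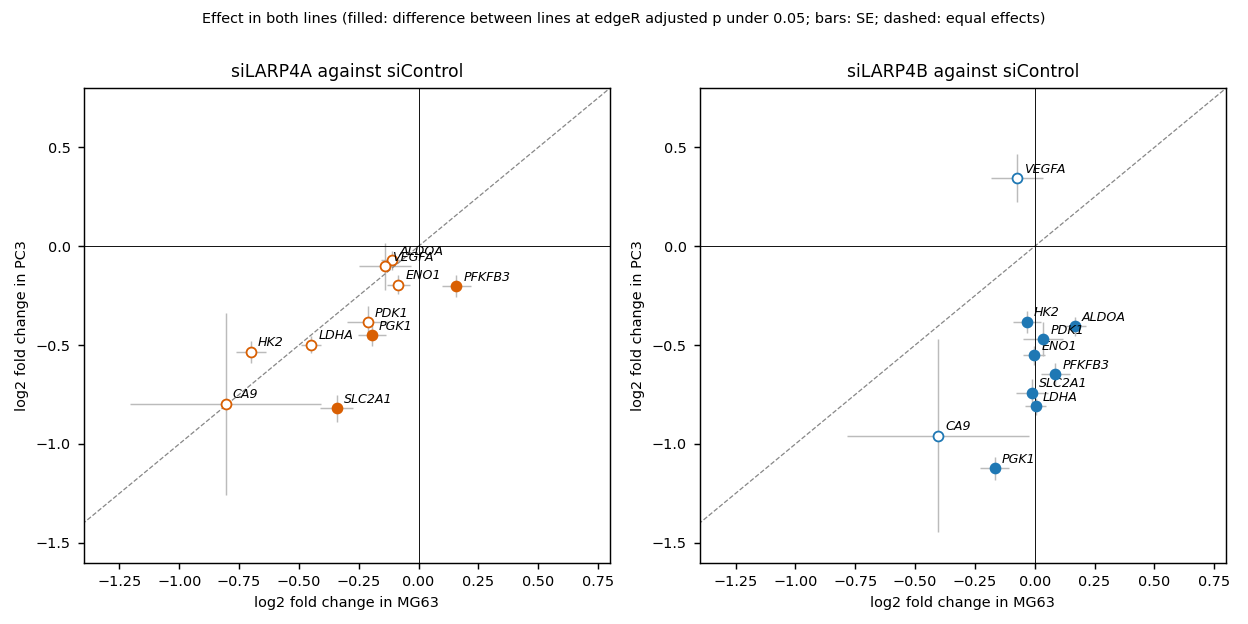
Change in PC3 (vertical axis, log2) against change in MG63 (horizontal axis, log2) for the 10 genes, with siLARP4A and siLARP4B in separate panels and the line of equal change drawn. With siLARP4B the genes other than VEGFA lie below the line, PGK1 lowest at -1.12 in PC3 and -0.17 in MG63.

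By role, the genes of glucose entry (SLC2A1, HK2) and lactate production (LDHA) fell in 3 of the 4 comparisons with siControl, all but siLARP4B in MG63. PGK1 passed the test as lower in all 4, with changes from -0.17 to -1.12. ENO1, PDK1 and PFKFB3 fell in PC3 with both siRNAs and did not pass in MG63. ALDOA fell in PC3 with siLARP4B, rose in MG63 with siLARP4B, and did not pass with siLARP4A. VEGFA passed once, as higher, and CA9 in none of the 4.

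The gene counts have limits for particular members. LDHA has 6 pseudogenes named after it in the GENCODE annotation, ENO1 4, ALDOA 2, and PGK1 and HK2 1 each. The authors' treatment of reads that fit several places is not given in the sources used here. The ALDOA model overlaps the gene LOC112694756 on the same strand, and the ENO1 gene contains MIR6728. A version of PC3 siControl replicate 2 with duplicate fragments removed kept 59.2% of fragments for ENO1, 67.4% for LDHA, 70.6% for PGK1 and 71.7% for ALDOA, but 90.7% to 92.9% for the other 6 genes. With that version in place of the full table, the siLARP4A changes of ENO1 and PGK1 and the siLARP4B changes of ENO1 and ALDOA in PC3 no longer passed. The other libraries kept their duplicates in that fit, so the swap by itself lowers 1 control for these genes. It cannot show whether their changes depend on duplicates.

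The pattern over libraries was compared by Pearson's r of log2 counts scaled to library size, centred within each line, over all 12 libraries. Pairs of the 10 genes ran from -0.65 (PFKFB3 with VEGFA) to 0.96 (PGK1 with ENO1). LDHA with PDK1 was 0.91, while HK2 was 0.45 with PGK1 and 0.12 with PFKFB3. Outside the set, of 9838 candidate genes, the nearest to PGK1 were RBBP7 (0.984), HAT1 (0.979) and GYG1 (0.977). The nearest to PDK1 were SRP9 (0.935), FAM91A1 (0.934) and the hypoxia-responsive BNIP3 (0.929). For CA9 they were APLN (0.952), AKAP12 (0.900) and ANGPTL4 (0.882), and for VEGFA FBXO27 (0.904), MIR4709 (0.901) and CDK18 (0.897). These values describe libraries that share cell line, depth and replicate gaps, and carry no test.

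Other genes of glycolysis changed in the same comparisons. For all the lists that follow, the shares of all tested genes to set beside the counts are 17.0% higher and 19.0% lower in PC3 with siLARP4A, 21.3% and 23.4% in PC3 with siLARP4B, 14.5% and 11.9% in MG63 with siLARP4A, and 18.8% and 16.3% in MG63 with siLARP4B. Of the further enzymes and carriers listed, 16 were tested. SLC2A3 was too low, and GPI, found at several places in the tables, was not used. With siLARP4A, 7 of 16 were lower and 0 higher in PC3 (median log2 change -0.15), and 7 were lower and 0 higher in MG63 (-0.15). In PC3 the largest were PFKL, the liver-type phosphofructokinase (-0.57 ± 0.057), and PFKFB4 (-0.44 ± 0.1). With siLARP4B in PC3, 10 were lower and 4 higher (-0.20), among them pyruvate kinase PKM, which was 1012 ± 19.9 FPKM with siControl and 657 ± 12.7 with siLARP4B (SD, n = 2), and triose phosphate isomerase TPI1, which was 379 ± 4.07 and 255 ± 9.33. PKM changed by -0.67 ± 0.045 and TPI1 by -0.61 ± 0.047. ENO2 (-0.54 ± 0.083) and PFKFB4 (-0.57 ± 0.11) fell as well. With siLARP4B in MG63, 5 were higher and 2 lower (0.08), and the lactate carrier SLC16A1 rose by 0.50 ± 0.048.

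Of 21 further hypoxia-responsive genes tested, 10 were lower and 4 higher in PC3 with siLARP4A (median log2 change -0.38), and 13 were lower and 2 higher with siLARP4B (-0.39). The 4 that were higher are near the 17.0% of all tested genes. BNIP3, a mitochondrial protein of mitophagy, was 104 ± 2.24 FPKM with siControl, 44.9 ± 3.17 with siLARP4A and 46.6 ± 2.59 with siLARP4B (SD, n = 2). It fell by 1.22 ± 0.072 and by 1.20 ± 0.073 on the log2 scale. PLOD2, a collagen lysyl hydroxylase, was 28.7 ± 0.354 with siControl and 9.59 ± 0.444 with siLARP4B, a change of -1.63 ± 0.09, and changed by -0.45 ± 0.082 with siLARP4A. With siLARP4B NDRG1 (-1.32 ± 0.25) and ANGPTL4 (-1.29 ± 0.38) fell, and with siLARP4A EGLN3 (-0.90 ± 0.17) fell. P4HA1 fell with both, by -0.69 ± 0.086 with siLARP4A and -0.58 ± 0.086 with siLARP4B. So did BNIP3L, by -0.67 ± 0.091 and -0.51 ± 0.092 in the same order.

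In MG63 the same list was mixed. With siLARP4A, 5 were higher and 4 lower (median -0.14). STC2, a secreted glycoprotein (0.90 ± 0.055), P4HA2, a collagen prolyl hydroxylase (0.73 ± 0.076), and DDIT4, an inhibitor of mTORC1 (0.63 ± 0.094), rose. BNIP3L (-0.66 ± 0.083) and BNIP3 (-0.60 ± 0.072) fell. With siLARP4B, 2 were higher and 6 lower (-0.09), with PLOD2 (-0.77 ± 0.077), BHLHE40 (-0.67 ± 0.11) and BNIP3L (-0.42 ± 0.082) the largest.

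Among the oxygen-sensing genes, RNA of HIF1A itself fell in 3 of the 4 comparisons. HIF1A was 115 ± 4.19 FPKM in PC3 with siControl, 65.6 ± 6.28 with siLARP4A and 81.9 ± 0.474 with siLARP4B (SD, n = 2). It changed by -0.82 ± 0.056 and -0.54 ± 0.055 (edgeR adjusted p = 1.48e-10 and 5.17e-08). In MG63 it was 39.2 ± 0.526, 27.9 ± 0.988 and 38.1 ± 2.50, a change of -0.47 ± 0.06 with siLARP4A and -0.02 ± 0.058 with siLARP4B (adjusted p = 0.882). The change in PC3 was more negative than in MG63 with both siRNAs, by -0.35 ± 0.081 (adjusted p = 0.00606) and by -0.52 ± 0.08 (adjusted p = 4.38e-05). RNA of HIF1A does not give the level of its protein, which is set mainly by degradation. Of the 9 oxygen-sensing genes tested, 3 were higher and 3 lower in PC3 with siLARP4A, and 0 and 3 with siLARP4B (against 36.0% and 44.7% of all tested genes called in either direction), where the hydroxylase EGLN1 (-0.48 ± 0.061) fell. In MG63 2 were higher and 2 lower with siLARP4A, and 1 and 3 with siLARP4B, where ARNT2 (-0.50 ± 0.092) fell. The list's median log2 changes were 0.11, -0.26, 0.02 and -0.13 in that order. EGLN1 and EGLN3 are also counted among the hypoxia-responsive genes.

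**Figure D4:**
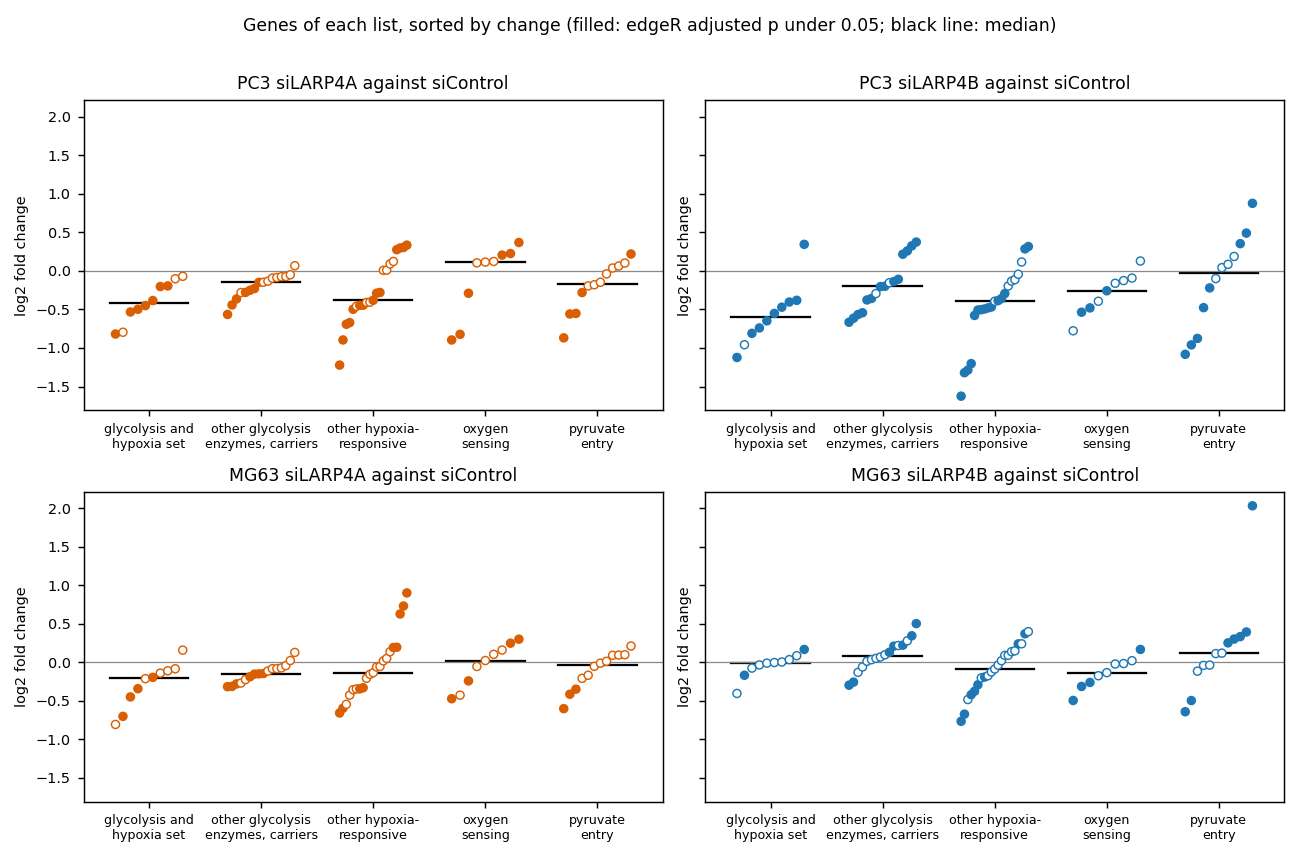
Log2 change against siControl of every tested gene in 5 lists (the 10 genes, other glycolysis genes, other hypoxia-responsive genes, oxygen sensing and pyruvate entry), in the 4 comparisons, with 1 point per gene and a bar at each list's median. In PC3 the medians of the 10 genes are -0.42 and -0.60, and in MG63 -0.20 and -0.01.

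PDK1 acts on the pyruvate dehydrogenase complex, several of whose other genes also fell. With siLARP4A the subunit DLAT was 26.1 ± 0.376 FPKM in PC3 controls and 14.4 ± 0.733 after knockdown (SD, n = 2), a change of -0.87 ± 0.062, and in MG63 it changed by -0.60 ± 0.066. DLAT also fell in PC3 with siLARP4B (-0.48 ± 0.061). DLD fell with siLARP4A in both lines (-0.56 ± 0.059 in PC3 and -0.41 ± 0.063 in MG63). With siLARP4B the subunit PDHX and the pyruvate carrier MPC2 fell in both lines, PDHX by 0.96 ± 0.086 in PC3 and 0.64 ± 0.077 in MG63, and MPC2 by 1.08 ± 0.066 and 0.50 ± 0.062, on the log2 scale. Of PDK1's relatives, PDK3 fell (-0.88 ± 0.11) and PDK4 rose (0.88 ± 0.13) in PC3 with siLARP4B. PDK4 also rose in MG63 with siLARP4B (2.03 ± 0.42), where it was no more than 0.309 FPKM in any library. Of the 12 genes of this list, 1 was higher and 4 lower in PC3 with siLARP4A, 3 and 5 with siLARP4B, and in MG63 0 and 3, then 5 and 2. All tested genes called in either direction were 36.0%, 44.7%, 26.4% and 35.1%, and the 3 of 12 called in MG63 with siLARP4A are near that share. The list's medians were -0.16, -0.03, -0.03 and 0.12 in that order.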

How the data were processed

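The 12 deposited tables listed 86394 transcript models each, with fragment counts, a normalised signal per model and FPKM, per the file headers. The deposited signal summed to about 3350072 per library over all models, because overlapping models of a gene hold the same fragments. The authors' FPKM is that signal per kilobase of the model. FastQC, HISAT2, featureCounts, edgeR and build hg38 are named in the submitters' processing notes, without versions. Strand handling and multimapping were not given in the sources used here.

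For each symbol on chromosomes 1 to 22 and X the model with the most fragments over all libraries was used, and 1748 symbols at several loci were left out. The quasi-likelihood test of edgeR 4.0.16 (R 4.3.3) was applied to the deposited counts (TMM scaling, filterByExpr, 1 fit of 12 libraries with a mean per group, two-sided). The biological coefficient of variation was 4.21%. The labels call the 2 libraries of a group biological replicates but do not say how they were separated, so p-values measure the spread between these libraries. Code was tested on simulated data.

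The 10 genes, the lists and the tests were chosen with earlier results of these data known. From each list, up to 6 genes per comparison with siControl were named, those with the largest absolute log2 change of at least 0.4 among those past an adjusted p of 0.05, and the text gives some of them. For PGK1, PDK1, CA9 and VEGFA the 3 genes of most similar pattern were named. Alternatives were DESeq2 1.42.0, limma 3.58.1 on log2 FPKM, other scaling, filters and models, a replicate block, and leaving out each library.

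Some listed genes are not reported here.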

Additional observations from a re-analysis of the deposited data

Results flagged for a closer look

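The genes listed here changed differently in the 2 cell lines by a direct test of the difference, the log2 change in PC3 minus that in MG63 (edgeR, adjusted p under 0.05, 2 libraries per group). With siLARP4B these were PGK1 (-0.95), LDHA (-0.81), PFKFB3 (-0.73), SLC2A1 (-0.73), ALDOA (-0.57), ENO1 (-0.55), PDK1 (-0.51) and HK2 (-0.35). With siLARP4A they were SLC2A1 (-0.48), PFKFB3 (-0.36) and PGK1 (-0.25). All 11 differences are negative, so that the change was more negative in PC3. Knockdown of LARP4 and of LARP4B also left a smaller share of the control in PC3 than in MG63. The part of that in these differences was not tested. The siLARP4B difference of ENO1 lost its call with the deduplicated PC3 control table (-0.28), that of PDK1 with limma and without PC3 siLARP4B replicate 2, and the siLARP4A difference of PGK1 in most alternatives.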

How the results depend on the processing

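Of 195 recomputed counts of genes called, 13 moved by over 1.5 times, all in MG63 or in the siLARP4A comparison of the lines. The MG63 siLARP4A count of 4 became 7 with no filter on low counts and 10 with only the 4 libraries compared, and was 3 to 7 when 1 library was left out. The MG63 siLARP4B count of 2 was 0 with limma on log2(FPKM + 1) and 0 on log2(FPKM + 0.1), and 0 to 3 with 1 library left out. The MG63 count between siRNAs (5) ranged from 4 to 8, and the siLARP4A difference between lines (3) from 1 to 3. With 1 library left out, the other counts ranged over 5 to 8 (PC3 siLARP4A), 8 to 10 (PC3 siLARP4B), 6 to 7 (PC3 between siRNAs), 7 to 9 (siLARP4B between lines) and 7 to 8 (siControl lines). Of 1941 values for single genes, 1816 kept their call, 61 lost it, 60 gained it and 4 reversed. With the deduplicated table of 1 PC3 control, which removes more fragments from highly expressed genes, ENO1 reversed. Its value became 0.075 with siLARP4A against siControl in PC3 and -0.064 in PC3 siControl against MG63 siControl. The other libraries kept their duplicates in that fit, so it cannot show whether these values depend on duplicates. Without MG63 siLARP4B replicate 1, CA9 and VEGFA reversed between the siRNAs in MG63, their range with 1 library left out being -1.142 to 1.266 and -0.313 to 0.235. The cause was not tested.

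Over all genes, samples with the same replicate number did not deviate together (correlations from -0.0272 to 0.0486), so the numbers were not taken to pair the libraries. CA9, NDRG1, ANGPTL4, EGLN3 and VEGFA were nevertheless higher in replicate 1 of all 3 MG63 groups. So were further listed genes, among them PGK1, P4HA1, MXI1, BNIP3L and PLOD2. Many others were not, among them HK2, PFKFB3, ENO1, LDHA, PDK1, BNIP3, ANKRD37, P4HA2, BHLHE40, DDIT4 and STC2. With the replicate number as a block, 8, 10, 5 and 2 of the 10 genes passed against siControl (PC3 siLARP4A, PC3 siLARP4B, MG63 siLARP4A and MG63 siLARP4B), the added gene being CA9 in the first 3. CA9 rests on 42 to 232 fragments per library.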

Other observations

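VEGFA binds receptors and co-receptors that were measured in the same libraries. The co-receptor NRP2 rose with siLARP4A in both lines, from 4.78 ± 0.0431 to 8.50 ± 0.0518 FPKM in PC3 (0.82 ± 0.085 on the log2 scale) and from 0.535 ± 0.111 to 0.995 ± 0.217 in MG63 (0.91 ± 0.17; SD, n = 2). NRP1 rose as well, by 0.40 ± 0.046 and 0.45 ± 0.074. Of 8 genes of the VEGF family and its receptors, 4 were higher and 0 lower in PC3 with siLARP4A, and 3 and 2 in MG63, against 17.0% and 19.0% of all tested genes in PC3 and 14.5% and 11.9% in MG63. With siLARP4B 1 was higher and 4 lower in PC3, and 0 and 1 in MG63, against 21.3% and 23.4%, then 18.8% and 16.3%. PGF, a VEGF relative, fell in MG63 with siLARP4A (-0.44 ± 0.096).

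Some glucose regulators outside glycolysis moved in different directions, by siRNA for ARRDC4 in PC3 and by line for PCK2 with siLARP4A. TXNIP, which limits glucose uptake, was 48.2 ± 0.509 FPKM in PC3 controls and 34.8 ± 1.66 with siLARP4A (-0.48 ± 0.089; SD, n = 2), and rose in MG63 with siLARP4B (0.89 ± 0.11). Its relative ARRDC4 fell with siLARP4A in PC3 (-0.61 ± 0.099), and rose with siLARP4B in PC3 (0.77 ± 0.09) and in MG63 (0.71 ± 0.12). PCK2, the mitochondrial enzyme that makes phosphoenolpyruvate, went from 7.66 ± 0.125 to 5.10 ± 0.101 FPKM with siLARP4A in PC3 (-0.60 ± 0.11) and from 4.23 ± 0.748 to 10.2 ± 0.714 in MG63 (1.29 ± 0.11). Of the 11 genes of this list, 3 were higher and 5 lower in PC3 with siLARP4A, 3 and 1 with siLARP4B, and in MG63 2 and 1, then 7 and 1. All tested genes called in either direction were 36.0%, 44.7%, 26.4% and 35.1%, so the 4 of 11 called in PC3 with siLARP4B are below that share and the 3 of 11 in MG63 with siLARP4A near it.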
